A study of Macaca fascicularis with 2 samples.

Results

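The branched-chain amino acids leucine, isoleucine and valine are broken down in muscle by 2 shared steps, and the 8 genes described here encode the machinery of both: the transaminases BCAT1 and BCAT2, the dehydrogenase subunits BCKDHA, BCKDHB, DBT and DLD, the kinase BCKDK and the phosphatase PPM1K. They were taken by symbol from the 28175 genes named in the deposited tables, as a set defined by function. The set was chosen with earlier results of these data known. Polyadenylated RNA of gastrocnemius, a calf muscle, was sequenced from the cynomolgus macaque, Macaca fascicularis, in 2 libraries. The lean library came from a sample on a chow diet and the non-lean library from a sample on a high fat diet. Neither the animals' age nor whether a library holds 1 animal or a pool is stated by the labels. With 1 library per group no difference below has a replicate check, no test was possible, and diet, body condition, animal and library preparation cannot be told apart.

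Transaminases move the amino group of a branched-chain amino acid to 2-oxoglutarate, which yields glutamate and a branched-chain keto acid. BCAT2 does so in mitochondria and BCAT1 in the cytosol. The branched-chain keto acid dehydrogenase then commits the keto acid to oxidation: the E1 part, built from BCKDHA and BCKDHB, removes carbon dioxide, the E2 core, DBT, transfers the acyl group to coenzyme A, and the E3 part, DLD, which also serves the pyruvate and 2-oxoglutarate dehydrogenases, reoxidises the lipoyl arm. BCKDK switches the complex off by phosphorylating BCKDHA, and PPM1K switches it on by removing that phosphate. Skeletal muscle is known as a main site of the transamination step.

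The lean library held 15983348 counts and the non-lean library 12731972. Levels are given as counts and as CPM, the count per 1000000 counts of the library after scaling by the trimmed mean of M-values. On that scale 1 count was worth 0.0657 CPM in lean and 0.0748 CPM in non-lean muscle. Ratios are on the log2 scale, with non-lean muscle over lean, and brackets after a value hold its exact 95% interval, which covers counting error only. Skeletal muscle markers were abundant in both libraries, with the actin ACTA1 at 80371 CPM in lean and 60127 CPM in non-lean muscle. The files give no transcript length, so levels are compared between libraries within a gene and not between genes.

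All 8 genes passed the filter of a mean of 1 CPM. Of the 8, 5 had a ratio whose interval lay below 0 (BCAT1, BCAT2, BCKDHB, BCKDK and PPM1K), DLD had one above 0, and the intervals of BCKDHA and DBT held 0. Over all 13707 genes that passed the filter, 28.8% had an interval below 0, 25.8% one above 0 and 45.5% one that held 0. Because the 8 genes were chosen with earlier results of these data known, this is not a comparison with an unselected set. The median ratio of the 8 genes was -0.50, and that of all genes that passed was -0.01, with quartiles of -0.39 and 0.34. Only PPM1K of the 8 was at least 2-fold lower with an interval below 0, which 7.16% of all genes were, and none of the 8 was at least 2-fold higher, where the share of all genes was 4.91%. Scaling by total counts raised every ratio by 0.14. Then 3 of the 8 intervals lay below 0 and 2 above, against 20.9% and 35% of all genes, because those of BCAT1 (-0.76 [-1.65, 0.04]) and BCKDHB (-0.37 [-0.76, 0.01]) reached 0 and that of BCKDHA (0.27 [0.09, 0.44]) left it. No ratio of the 8 changed sign under the 3 other scalings tried.

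**Figure D1:**
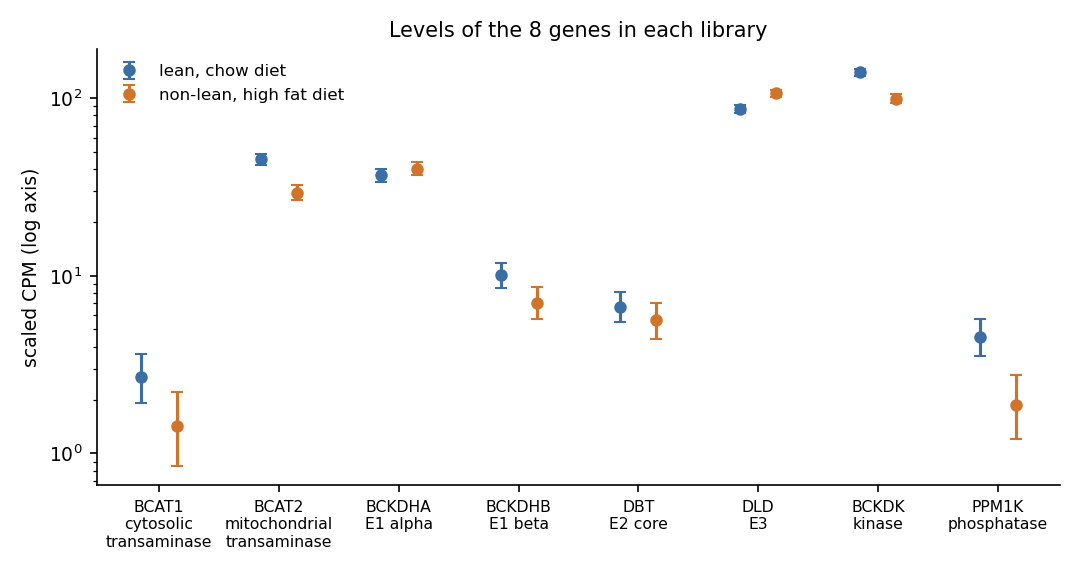
Scaled CPM (log axis) of the 8 genes in the lean library on a chow diet and the non-lean library on a high fat diet; each point is 1 library and the bars are exact 95% Poisson intervals of the count. The points of BCAT2, BCKDK and PPM1K lie lower in the non-lean library with intervals that do not overlap, DLD lies higher, and the intervals of BCAT1, BCKDHA, BCKDHB and DBT overlap between libraries.

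BCAT2 had 689 counts in lean and 393 in non-lean muscle. These correspond to 45.3 CPM [42.0, 48.8] and 29.4 CPM [26.6, 32.4], so the counting intervals of the libraries did not overlap. The log2 ratio was -0.62 [-0.81, -0.44], a level 1.54-fold lower in the non-lean library. Of all genes that passed the filter, 15.8% had a ratio at or below that of BCAT2, and 870 lay within 0.1 of it. The series title names BCAT2, so the study may have singled it out on these samples.

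BCAT1, the cytosolic enzyme, was near the lower end of what these libraries resolve. It had 41 counts in lean and 19 in non-lean muscle, or 2.69 CPM [1.93, 3.65] and 1.42 CPM [0.855, 2.22]. The counting intervals of these levels overlapped, while the interval of the ratio, -0.90 [-1.79, -0.11], lay just below 0. For 1 count of BCAT1 there were 16.8 of BCAT2 in lean and 20.7 in non-lean muscle. That proportion was not resolved as different: the log2 ratio of BCAT1 over BCAT2 differed by -0.30 [-1.19, 0.54] between libraries.

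BCKDHA, the catalytic E1 alpha subunit that carries the regulatory phosphate, had 561 counts in lean and 538 in non-lean muscle. Its levels were 36.9 CPM [33.9, 40.0] and 40.2 CPM [36.9, 43.8], and its ratio was 0.13 [-0.05, 0.30]. BCKDHB, the E1 beta subunit that pairs with it, had 153 and 94 counts, at 10.1 CPM [8.52, 11.8] and 7.03 CPM [5.68, 8.60]. Its ratio of -0.51 [-0.90, -0.14] lay below 0. The subunits of E1 thus went apart: the count ratio of BCKDHA over BCKDHB was 3.67 in lean and 5.72 in non-lean muscle, a log2 difference of 0.64 [0.22, 1.07] that does not depend on how libraries are scaled.

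DBT, the E2 core, had 102 counts in lean and 75 in non-lean muscle. Its levels were 6.70 CPM [5.47, 8.14] and 5.61 CPM [4.41, 7.03], and its ratio of -0.25 [-0.71, 0.19] held 0. DLD, the shared E3 subunit, had 1330 and 1426 counts, at 87.4 CPM [82.8, 92.2] and 107 CPM [101, 112]. It was the only member with an interval above 0, at 0.29 [0.18, 0.40], a level 1.22-fold higher. The count ratio of DLD over DBT was 13.0 in lean and 19.0 in non-lean muscle, a log2 difference of 0.54 [0.09, 1.01], and that of BCKDHA over DBT was 5.50 and 7.17, a difference of 0.38 [-0.10, 0.87] that held 0. The counts of DLD cannot be divided among the complexes that use this subunit.

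BCKDK, the inhibitory kinase, had 2130 counts in lean and 1332 in non-lean muscle. Its levels were 140 CPM [134, 146] and 99.6 CPM [94.3, 105], and its ratio was -0.49 [-0.59, -0.39], a level 1.40-fold lower. PPM1K, the activating phosphatase, had 69 and 25 counts, at 4.53 CPM [3.53, 5.74] and 1.87 CPM [1.21, 2.76]. Its ratio of -1.26 [-2.0, -0.60] was the lowest of the 8, a level 2.39-fold lower, and 4.27% of all genes that passed the filter stood at or below it. Both opposing enzymes were therefore lower in the non-lean library, the phosphatase more so. Their count ratio, kinase over phosphatase, was 30.9 in lean and 53.3 in non-lean muscle, a log2 difference of 0.79 [0.10, 1.52] whose lower bound is close to 0.

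Ratios between members were taken because the scaling of the libraries cancels in them. Of the 6 pairs listed for this comparison, 4 had an interval that excluded 0. The share over other pairs of genes was not computed. Over all single genes 28.8% of intervals lay below 0 and 25.8% above, so nothing is read from the count of pairs. The narrowest interval was that of BCAT2 over BCKDHA, which joins the first step to the second. Each count of BCKDHA came with 1.23 counts of BCAT2 in lean and 0.730 in non-lean muscle, a log2 difference of -0.75 [-1.0, -0.50]. Of 4 pairs added after the values were seen, BCKDK over BCKDHA differed by -0.62 [-0.82, -0.42] and PPM1K over DBT by -1.02 [-1.87, -0.19]. The other pairs added, BCKDHB over DBT at -0.26 [-0.85, 0.34] and DLD over BCKDHA at 0.16 [-0.04, 0.37], held 0. Pairs that share a gene are not independent of each other.

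**Figure D2:**
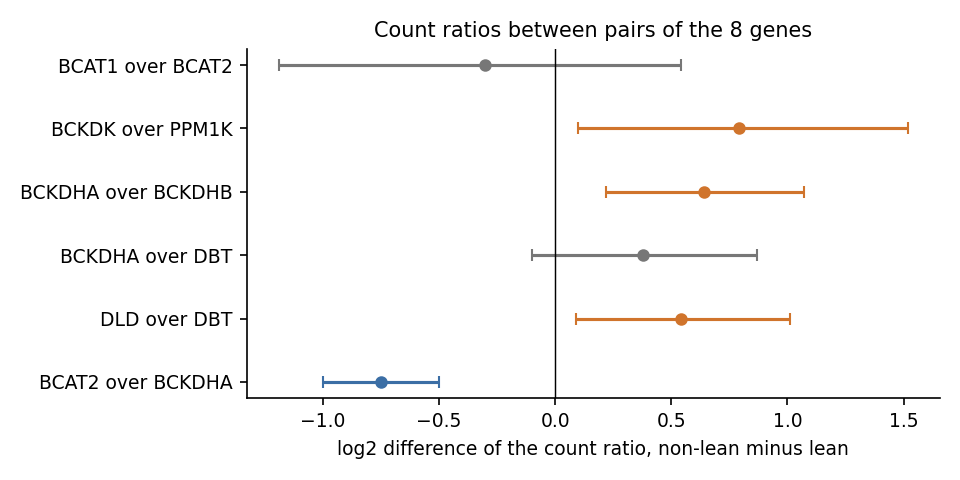
Difference between libraries in the log2 count ratio of 6 pairs of the 8 genes (x axis, non-lean minus lean); points are the conditional estimates and bars their exact 95% intervals. BCAT2 over BCKDHA lies below 0, BCKDK over PPM1K, BCKDHA over BCKDHB and DLD over DBT lie above 0, and the intervals of BCAT1 over BCAT2 and BCKDHA over DBT hold 0.

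The deposited rows are transcript models, and the 8 genes had 31 of them, of which 17 held at least 1 estimated count in either library. BCKDHA has a single model, NM_001284089.1, so its isoform use cannot be examined in these tables. BCAT1, DLD and PPM1K have several models, but each had counts in 1 model only: XM_015430503.1 for BCAT1, XM_005550508.2 for DLD and XM_005555392.2 for PPM1K. BCKDK was carried almost wholly by XM_005591704.2, with 2130.32 estimated counts in lean and 1325.34 in non-lean muscle. Its other model, NM_001287609.1, was listed at 0 in the lean library, which allows a share of up to 0.141%, and held 6.66 estimated counts in the non-lean library. Isoform use could therefore be compared for BCAT2, BCKDHB and DBT. The estimation divides reads among models that share sequence, so the intervals of the shares below do not cover the error of that division, and a value of 0 can be a product of it.

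BCAT2 had 4 models with counts. XM_005589814.2 held 291.70 estimated counts in lean and 236.63 in non-lean muscle, and XM_015441774.1 held 294.34 and 156.22. In the lean library these leading models were almost level, at 42.4% [38.7, 46.2] and 42.7% [38.9, 46.5] of the gene. In the non-lean library XM_005589814.2 made up 60.3% [55.3, 65.2] and XM_015441774.1 39.7% [34.8, 44.7]. The remaining models, XM_015441776.1 with 72.59 and XM_005589818.2 with 30.37 estimated counts in the lean library, were listed at 0 in the non-lean library, where a count of 0 allows a share of up to 0.763% each.

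The lower level of BCAT2 was thus unevenly spread over its models. Of the 15.9 CPM by which the gene was lower in the non-lean library, XM_015441774.1 accounted for 7.66, XM_015441776.1 for 4.77, XM_005589818.2 for 2.0 and XM_005589814.2 for 1.47. The ratio of XM_005589814.2 taken alone was -0.11 [-0.37, 0.14], which held 0, and that of XM_015441774.1 was -0.73 [-1.02, -0.44]. With only the models that had counts in both libraries the ratio of BCAT2 was -0.39 [-0.58, -0.20]. The models left out had counts in the lean library only, so the ratio could only rise. XM_005589814.2 is the only one of these 4 models found by accession in a RefSeq gene table of the assembly T2T-MFA8v1.1.

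BCKDHB had 2 models. XM_005552488.2 held 95.30 estimated counts in lean and 44.47 in non-lean muscle, a ratio of -0.92 [-1.47, -0.39]. XM_015448856.1 held 57.70 and 49.53, a ratio of -0.03 [-0.60, 0.54]. The share of XM_005552488.2 was 62.1% [53.9, 69.8] in lean and 46.8% [36.4, 57.4] in non-lean muscle, and these intervals overlapped. Of the 3.02 CPM by which BCKDHB was lower in the non-lean library, 2.94 lay in XM_005552488.2 and 0.0875 in the other model. Only XM_005552488.2 was found in the same RefSeq gene table.

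DBT, whose summed ratio held 0, had the most uneven models. XM_015432220.1 held 60.86 estimated counts in lean and 16.35 in non-lean muscle, which is 59.8% [49.6, 69.4] and 21.3% [12.7, 32.3] of the gene. XM_015432227.1 was listed at 0 in the lean library, which allows a share of up to 2.94%, and held 33.73 estimated counts, 45.3% [33.8, 57.3], in the non-lean library. XM_015432229.1 went from 6.86% [2.80, 13.6] in the lean to 22.7% [13.8, 33.8] in the non-lean library. In the same order XM_015432228.1 went from 12.7% [6.96, 20.8] to 0% [0, 4.8], and XM_015432232.1 from 20.6% [13.2, 29.7] to 10.7% [4.72, 19.9]. Of these DBT models only XM_015432232.1 was found in the same RefSeq gene table, and the leading models of both libraries were not. With only the models that had counts in both libraries the ratio of DBT would be -0.92 [-1.50, -0.38], and the log2 difference of BCKDHA over DBT 1.06 [0.48, 1.66]. That setting leaves out 33.73 estimated counts in the non-lean and 13.08 in the lean library, which lowers the DBT ratio by construction. Nothing about the summed ratio is read from it.

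**Figure D3:**
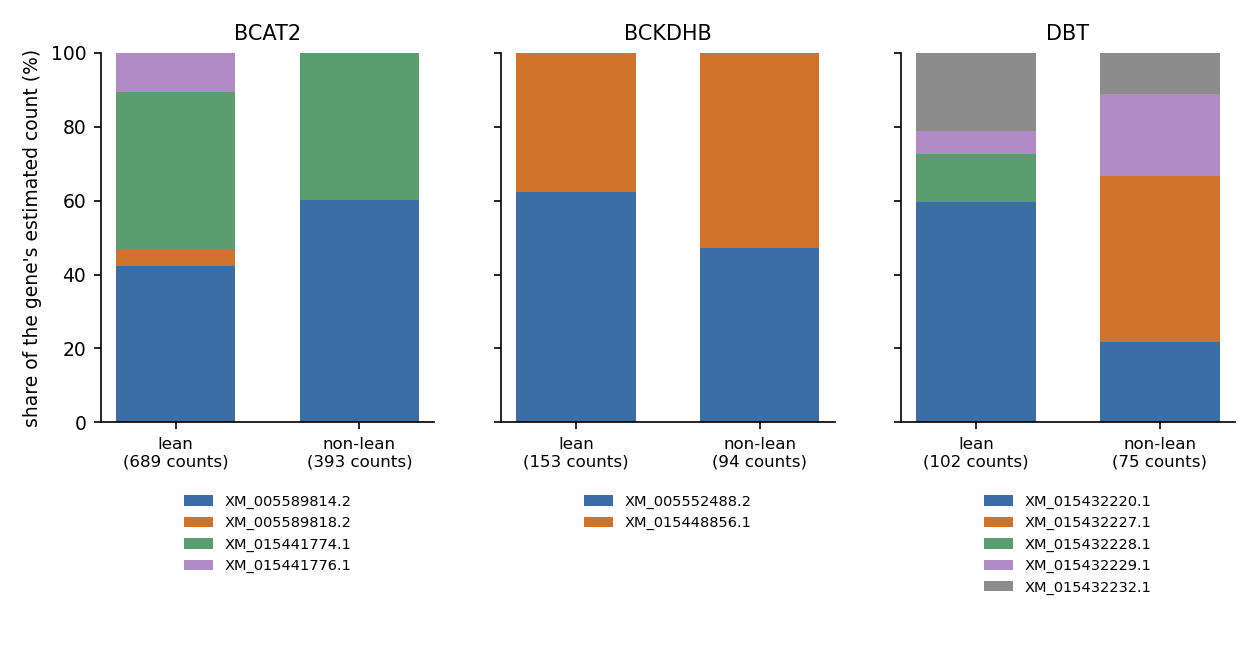
Share (%) of each transcript model in the estimated count of BCAT2, BCKDHB and DBT in the lean and the non-lean library, with the summed counts under each bar; colours mark models within a gene. XM_005589814.2 takes 42.4% of BCAT2 in lean and 60.3% in non-lean muscle, and the leading model of DBT changes from XM_015432220.1 to XM_015432227.1.

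Such differences between models were common in these libraries. Among 6091 genes with at least 2 models with counts and at least 50 counts in each library, the leading model differed between libraries in 27.1%, and 49.3% had a model at 0 in 1 library with at least 10 estimated counts in the other. Of the 4 members in that set, the leading model differed for 3 (BCAT2, BCKDHB and DBT), and BCAT2 and DBT had such a model at 0. Among genes with summed counts within 2-fold of each member, the leading model differed in 23.8% for BCAT2, 32.6% for BCKDHB, 35% for DBT and 19.7% for BCKDK. Nothing is read from so few members. For BCAT2 the lead in the lean library was only 2.64 estimated counts. The part of the estimated count that lay in other models between libraries was 17.9% for BCAT2, 15% for BCKDHB, 60.6% for DBT and 0.50% for BCKDK. The median over these genes was 18.7%, and over genes with summed counts within 2-fold of each member it was 17.1% for BCAT2, 23.9% for BCKDHB, 25.5% for DBT and 12.7% for BCKDK. The values of BCAT2 and BCKDHB were near or below those medians and that of DBT was above.

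Neighbouring genes were listed because the labels' protocols describe no strand-marking step. In the RefSeq table LRRC39, a gene of the sarcomeric M-band, overlaps DBT, and it had 1448 counts in lean and 2113 in non-lean muscle, a ratio of 0.73 [0.63, 0.83]. LAMB1, a laminin chain, overlaps DLD and had 185 and 116 counts, a ratio of -0.48 [-0.83, -0.14], opposite in sign to DLD. The noncoding gene LOC107128262 lies within the span of BCAT2 and had 0 and 2 counts. Without strand marking, reads of overlapping genes cannot be told apart by strand. Whether the genes overlap in the build behind the counts is not known, and their part in the values of DBT and DLD was not tested.

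The genes listed for steps downstream of the keto acid dehydrogenase and for side paths did not share a direction. Of 28 downstream and side-path genes that passed the filter, 12 had intervals below 0, 7 above 0 and 9 held 0, where 28.8% and 25.8% of all genes lay below and above, and the median was -0.18. With total counts 9 lay below and 8 above, against 20.9% and 35% of all genes, as ACADSB, ACAT1 and HADH lost their calls and HSD17B10 gained one. The lowest were the aldehyde oxidase AOX1 at -2.25 [-3.23, -1.46], the aminotransferase ABAT at -1.73 [-2.69, -0.93], the ketone body enzyme OXCT1 at -0.83 [-0.98, -0.70] and IVD, the leucine pathway dehydrogenase, at -0.82 [-1.0, -0.64]. High values were found for HADHA of fatty acid oxidation at 0.55 [0.47, 0.64], the epimerase MCEE at 0.43 [0.19, 0.67] and MMAA, a cobalamin chaperone, at 0.41 [-0.34, 1.16], which held 0. Nearest to BCAT2 in ratio were ALDH6A1 of valine breakdown at -0.64, MCCC1 of leucine breakdown at -0.58 and HMGCS1 of sterol synthesis at -0.68, within 0.01, 0.04 and 0.06 of it. With 2 libraries this likeness rests on 1 ratio per gene.

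**Figure D4:**
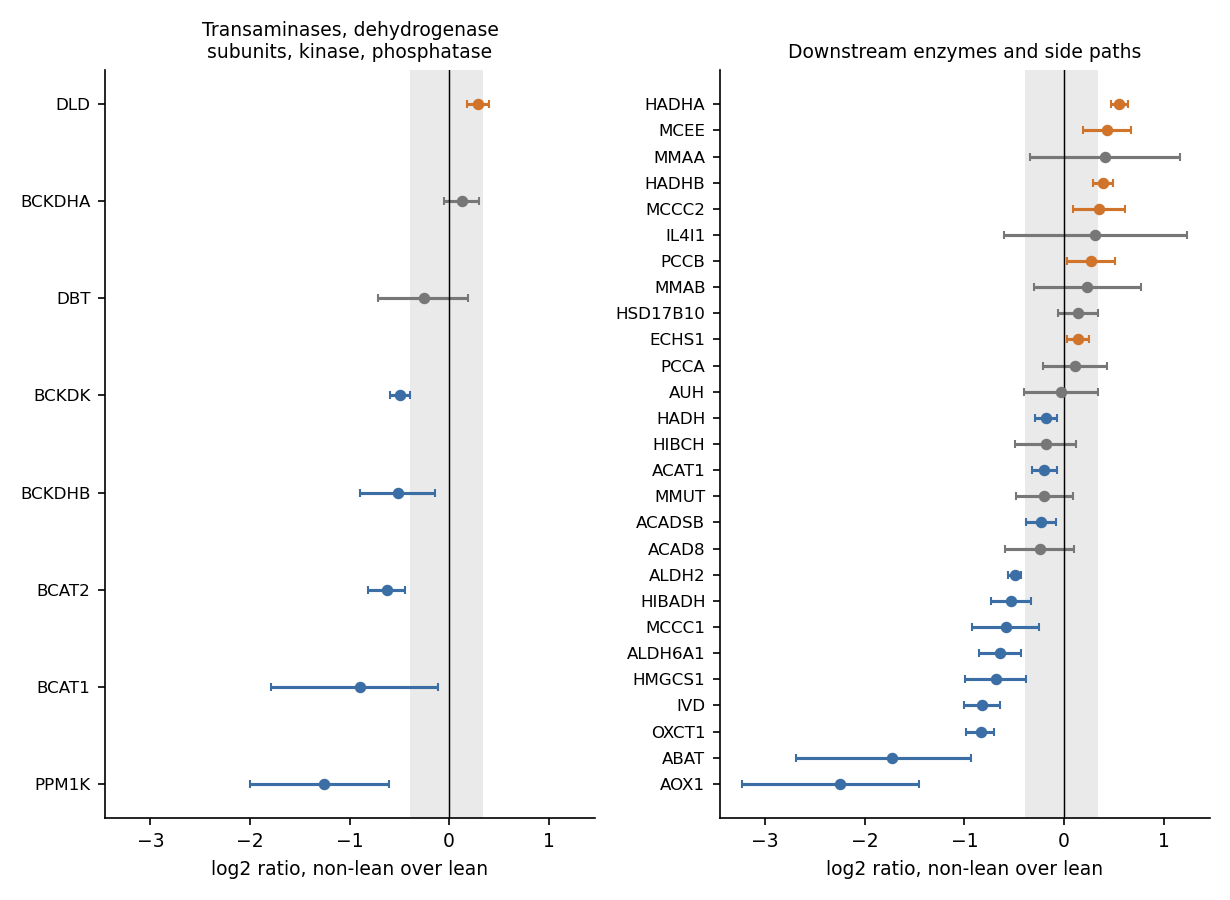
Log2 ratio, non-lean over lean (x axis), with exact 95% counting intervals, for the 8 genes on the left and for 27 downstream and side-path genes on the right. Blue intervals lie below 0, orange above, grey hold 0, and the grey band spans the quartiles of all genes that passed the filter, -0.39 to 0.34; the points of BCAT2, BCAT1, BCKDHB, BCKDK and PPM1K lie left of that band.

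The pyruvate and 2-oxoglutarate dehydrogenases are built on the same plan, share DLD, and are set beside the branched-chain complex for comparison. In the pyruvate dehydrogenase the E1 alpha subunit PDHA1 was at 0.58 [0.49, 0.68] and the E1 beta subunit PDHB at 0.10 [-0.01, 0.21]. Its core protein DLAT was at -0.18 [-0.29, -0.08] and PDHX, which tethers DLD to that core, at -0.82 [-1.0, -0.63]. OGDH and DLST, the first and second parts of the 2-oxoglutarate complex, were at -0.20 [-0.26, -0.15] and -0.18 [-0.27, -0.08]. With total counts the intervals of DLAT and DLST held 0 and that of PDHB lay above 0. In both the branched-chain and the pyruvate complex the alpha subunit of E1 had a higher ratio than the beta subunit. Of the other listed genes, the glycine cleavage proteins GCSH and AMT were at 1.17 [0.95, 1.40] and 0.45 [0.17, 0.73], and LIAS, which makes the lipoyl group of all these complexes, at 0.62 [0.31, 0.93]. DHTKD1, OGDHL, LIPT1 and LIPT2 had intervals that held 0, and GLDC, with 1 count in each library, did not pass the filter.

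Kinases and phosphatases of the pyruvate dehydrogenase resemble BCKDK and PPM1K in function. The phosphatase PDP1 was at -0.76 [-0.89, -0.63], PDP2 at -1.44 [-2.55, -0.51] with 38 and 12 counts, and the phosphatase regulator PDPR at -1.52 [-2.02, -1.06]. PDP2 passed the filter through the lean library, since its levels were 2.50 and 0.897 CPM. With PPM1K, the 4 phosphatase or phosphatase regulator genes listed had intervals below 0, as did 28.8% of all genes, and nothing is read from so few. Kinases were mixed: PDK2 was at 0.45 [0.37, 0.53], PDK3 at -0.77 [-1.57, -0.03], and PDK1 and PDK4 at -0.17 [-0.55, 0.19] and -0.02 [-0.28, 0.24]. With total counts the interval of PDK3, -0.63 [-1.43, 0.12], held 0, while that of BCKDK stayed below 0.

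**Figure D5:**
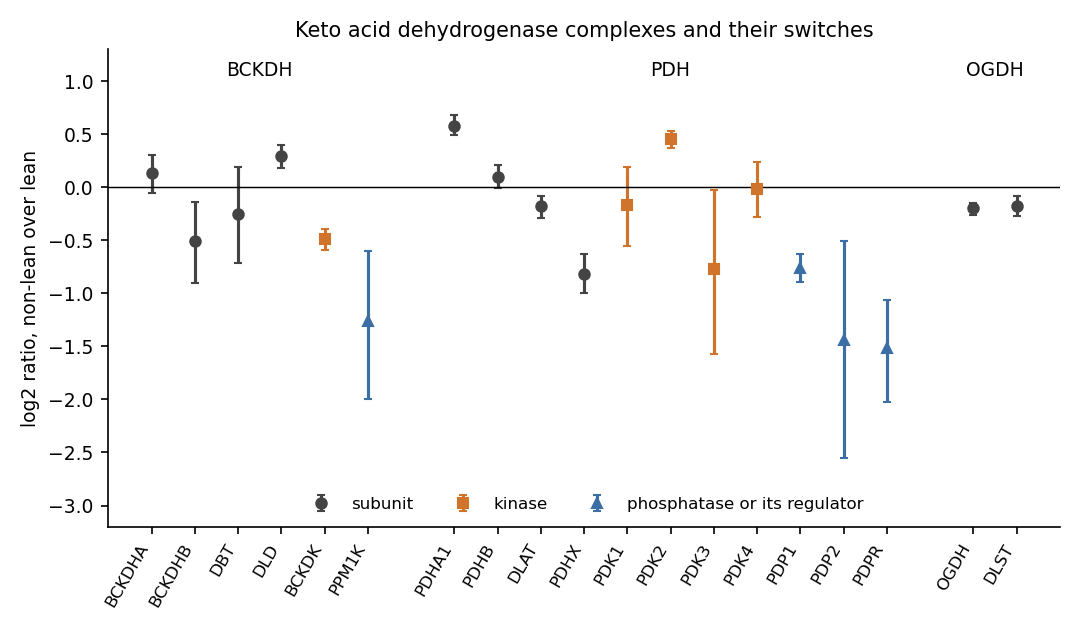
Log2 ratio, non-lean over lean (y axis), with exact 95% counting intervals for subunits (circles), kinases (squares) and phosphatases or their regulator (triangles) of the branched-chain keto acid (BCKDH), pyruvate (PDH) and 2-oxoglutarate (OGDH) dehydrogenases; DLD is drawn once, under BCKDH. The 4 triangles, PPM1K, PDP1, PDP2 and PDPR, lie below 0, from -0.76 to -1.52.

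Carriers that bring substrate to these enzymes went both ways. SLC25A44, the mitochondrial carrier of branched-chain amino acids, had 372 counts in lean and 293 in non-lean muscle and a ratio of -0.16 [-0.38, 0.07]. At the cell surface SLC7A5 was higher at 1.06 [0.82, 1.31], whereas SLC7A8 and SLC43A1 were lower at -1.15 [-1.39, -0.91] and -1.93 [-2.40, -1.50]. SLC3A2, the heavy chain that partners SLC7A5 and SLC7A8, was at -0.01 [-0.15, 0.13], and SLC43A2 at -0.28 [-0.61, 0.05]. The mitochondrial pyruvate carriers MPC1 and MPC2 were at 0.16 [0.03, 0.28] and 0.37 [0.27, 0.46], and SLC25A42, a carrier of coenzyme A, at 0.44 [0.24, 0.65].

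Regulators listed for this pathway included IRF4, which the series title links to BCAT2. IRF4 had 4 counts in lean and 24 in non-lean muscle, a ratio of 2.63 [1.23, 4.76]. At 0.263 and 1.79 CPM it passed the filter only through the library where it is high, so its ratio had to differ and nothing about BCAT2 is read from it. KLF15, a factor known to promote branched-chain amino acid breakdown in muscle, had 419 and 217 counts and a ratio of -0.76 [-1.01, -0.52]. MLXIPL, which is known to act on BCKDK and PPM1K in liver, was at 0.88 [0.65, 1.11], and ACLY, a further substrate of that kinase and phosphatase, at -0.76 [-1.03, -0.49]. The coactivator PPARGC1A was at 0.36 [0.16, 0.55] and PPARGC1B at -0.13 [-0.41, 0.15]. Nuclear receptors were split, with ESRRA at 0.35 [0.26, 0.45] and ESRRG at 0.60 [0.12, 1.11] above 0 and PPARA at -0.63 [-1.27, -0.03] and PPARD at -0.60 [-0.85, -0.37] below, although with total counts the interval of PPARA, -0.49 [-1.13, 0.11], held 0. SREBF1, MYC and ATF4 were lower, at -1.10 [-1.23, -0.97], -1.61 [-2.0, -1.24] and -0.61 [-0.65, -0.57], and HIF1A was at -0.19 [-0.43, 0.06].

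The libraries also differed in markers of fibre type and of other cells, and fewer cells of a type cannot be told apart in bulk RNA from less RNA per cell. For the counts of intervals below, the shares of all genes were 28.8% below 0 and 25.8% above. With total counts they were 20.9% and 35%. Skeletal muscle markers had 6 of 8 intervals below 0 and 2 above, or 5 and 3 with total counts. Their most abundant genes, ACTA1, CKM and TNNT3, were at -0.42, -0.57 and -0.18, and the 2 above 0 were MB at 0.80 and MYLPF at 0.13. Fast fibre markers had 8 of 8 intervals below 0, with summed levels of 112788 and 77227 CPM, but with total counts 6 lay below and 2 above, MYH2 at 0.09 and TNNI2 at 0.10. All 7 slow fibre markers that were matched had intervals above 0, with 9104 and 15935 CPM. The most abundant were MYH1, TNNT3 and ATP2A1 at -0.93, -0.18 and -0.46, and TNNC1, TNNT1 and MYL2 at 0.89, 1.11 and 0.32. Adipocyte markers had 5 of 7 intervals below 0 and 2 above, at 443 and 445 CPM in sum, of which the abundant PLIN4 made up 358 and 379 CPM, and their ratios ran from -3.55 to 0.26. Of these, ADIPOQ, CIDEC and CIDEA, at 0.224, 0.972 and 0.374 CPM in non-lean muscle, passed the filter only through the lean library. Their ratios therefore had to be low, and nothing is read from them. Macrophage markers had 8 of 9 intervals below 0, at 120 and 35.6 CPM, and fibroblast markers 7 of 8, at 1089 and 490 CPM. With total counts the adipocyte count was 4 below and 2 above. Endothelial markers had 4 of 6 intervals below 0 and smooth muscle markers 1 of 4, or 3 and 0 with total counts. Of the lymphocyte markers, PTPRC (29 and 11 counts) and JCHAIN (32 and 4) passed the filter through the lean library only, the T cell markers CD3E (14 and 11 counts) and CD3D (7 and 6) did not pass and their intervals held 0, and the B cell markers CD79A and MS4A1 were at 0 in both libraries. Of the 3 liver markers none passed the filter. No fibre type, adipocyte, macrophage or fibroblast marker was at 0 in either library. The part of these differences in the values of BCAT1, BCAT2, BCKDHB, BCKDK, PPM1K and DLD was not tested.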

How the data were processed

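Per the file headers, each deposited table gives expected counts, which are estimates with decimals, for 76183 RefSeq transcript models with their gene symbols. The submitters' processing notes list RSEM 1.3.3, STAR 2.7.8a and Trim Galore 0.6.6 without their roles. Which genome build and annotation release were used is not given in the sources used here. Per the labels' protocols, libraries were oligo(dT)-selected, primed with random hexamers and read on a BGISEQ-500, and the read format is named as both single-end and paired-end.

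Counts were summed per gene and rounded. The 24 symbols that had turned into dates were separated by transcript accession where it matched. Libraries were scaled with edgeR 4.0.16 (R 4.3.3; factors 0.952 lean, 1.05 non-lean), and DESeq2 1.42.0 gave alternative size factors. Values were computed with scipy 1.17.1, pandas 2.3.3 and numpy 2.4.6 under Python 3.11.15, and matplotlib 3.10.9 drew the figures. Log2 ratios used a prior count of 0.5 in each library and Clopper-Pearson intervals of the binomial split, levels exact Poisson intervals, transcript shares Clopper-Pearson intervals on rounded counts, and pairs of genes the exact conditional interval of the odds ratio. The upper limit of a share at 0 is that of its Clopper-Pearson interval. Reads carried no molecular identifiers in the protocol, so PCR copies are not independent and all intervals cover counting error only. The computation of the ratio and its interval was checked on simulated Poisson counts. These held no variation between animals, no PCR copies and no division of reads among models, so the check does not cover those errors.

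The members and lists were chosen with earlier results of these data known. The rule names all members and their models with at least 1 estimated count, every gene of the carrier, sister complex, kinase and phosphatase and regulator lists, 4 highest, 4 lowest and the 3 downstream genes nearest to BCAT2, and the 3 most abundant genes of a marker list. Overlapping genes, 4 pairs, the background of transcript models, the marker list counts with total counts and the older symbol of MMUT were added after the values were seen. Names and neighbours came from a RefSeq table of T2T-MFA8v1.1. The values of 1 downstream gene are not reported here, although it counts in its list. SLC6A15 and MYH7 were not matched and are not analysed here.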

Additional observations from a re-analysis of the deposited data

How the results depend on the processing

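Of 56 alternative values of the ratios of the 8 genes, 52 stayed inside the main counting interval, but many of them could hardly move. The use of protein-coding models only left all 8 ratios as they were, and the other prior count and unrounded counts changed them little. The 52 also include BCAT1, BCKDHA and BCKDHB with total counts, where the call of the interval changed. The number is therefore not read as a sign of robustness. With total counts DLD moved to 0.43 and BCKDK to -0.35, the members with intervals below 0 numbered 3, and those above 0 numbered 2. With only the transcript models that had counts in both libraries, BCAT2 moved to -0.39 and DBT to -0.92, whose interval then lay below 0, so that 1 interval held 0. The log2 difference of BCKDHA over DBT moved to 1.06 and that of DLD over DBT to 1.22. The direction of these moves was fixed by which models were left out, so nothing is read from them. A minimum mean of 5 CPM removes BCAT1 and PPM1K, which leaves 3 members with intervals below 0 and 0 at least 2-fold lower. All 68 alternative transcript shares stayed inside their main intervals, but the alternatives could hardly move them. They were the use of protein-coding models only, which left every share as it was, and counts that were not rounded. The division of reads among models was not varied, so nothing about its error follows. No paired analysis was possible because each group has 1 library. The 19 to 69 counts of BCAT1 and PPM1K limit their ratios, and the files give no transcript length, so a difference between libraries that depends on length was not tested.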

Other observations

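Transamination of branched-chain amino acids feeds the glutamate and alanine pool, and 9 genes of that exchange passed the filter. Intervals lay above 0 for 2, below 0 for 1 and held 0 for 6, where 25.8% of all genes lay above and 28.8% below, and the median was -0.04. GLUL, the glutamine synthetase, had 12364 counts in lean and 7332 in non-lean muscle, a ratio of -0.57 [-0.61, -0.53]. The aspartate transaminases GOT1 and GOT2 were at -0.04 [-0.10, 0.02] and 0.09 [0.05, 0.13], and the alanine transaminases GPT and GPT2 at -0.02 [-0.17, 0.13] and 0.02 [-0.08, 0.13]. The aspartate and glutamate carrier SLC25A12 was at 0.37 [0.30, 0.45]. These genes were named after their values were seen. With total counts 4 intervals lay above 0, as did 35% of all genes, with GOT1 at 0.10 [0.04, 0.16] and GPT2 at 0.16 [0.06, 0.27] added. GPT was then at 0.12 [-0.03, 0.27].

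Of the 8 genes, 3 had gene totals that were whole to within 0.02 in both libraries (BCKDHA, BCKDHB and DBT), whereas BCAT1, BCAT2 and DLD in the non-lean and BCKDK and PPM1K in the lean library did not. The estimated count of BCAT1 in the non-lean library was 19.47, that of BCAT2 392.85 and that of DLD 1425.85.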
